A study of Mus musculus with 12 samples.

Results

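Autophagy genes, together with Trp53inp1, were followed through granulocyte development in mouse bone marrow. The set was a list of 40 genes chosen by name: the kinase and lipid kinase complexes that start autophagy, the proteins that supply and mark the membrane, the conjugation enzymes, the Atg4 proteases, the Atg8 family, the cargo receptors, the transcription factor Tfeb and the p53-inducible nuclear proteins Trp53inp1 and Trp53inp2. A row of the arrays was taken for each gene, the one with the highest mean where several carried the gene's symbol, which gave values for 39 of the 40 genes among 19937 genes tested. Optn was not analysed here. Total RNA had come from untreated C57BL/6 bone marrow sorted into LSK cells (Lin- Sca1+ cKit+, the fraction with the stem and progenitor cells) and into promyelocytes, myelocytes and granulocytes. Every population had 3 Affymetrix Mouse Gene 1.0 ST arrays, 12 in all. Replicates are titled biological, but whether each was a different animal is not stated, and a p-value here reflects only how far such arrays scatter, some of which may be technical. The age and sex of the mice were not given in the sources used here.

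Autophagy encloses cytoplasm in a double membrane and delivers it to the lysosome. A kinase complex around Ulk1 starts it, a class III PI3 kinase complex marks the site with the lipid PI3P, and conjugation enzymes attach small ubiquitin-like proteins of the Atg8 family (LC3 and GABARAP proteins) to the growing membrane. Cargo receptors bind both cargo and Atg8 proteins. In mice, loss of autophagy genes is known to disturb both the maintenance of haematopoietic stem cells and the maturation of neutrophils.

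Values are log2 signals, and the median gene had a within-group SD of 0.21. A level of 4.54, which 95 percent of the group means of 1194 olfactory and vomeronasal receptor genes lay at or under, was taken as the level of dim signal. On the rows used, none of the 39 genes had a stage mean at or under it (0 of 39), although Gabarapl1 in myelocytes and Atg14 in granulocytes came close. Signals of different genes were read through different probes, so levels were compared between stages and not between genes. A gene is said to have risen or fallen where limma gave a Benjamini-Hochberg adjusted p under 0.05 over all tested genes and a difference of at least 2-fold. The populations are sorted bulk samples, in which fewer cells carrying a transcript and less of the transcript per cell cannot be told apart.

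The stage markers followed the labels. Kit, used in the sort, averaged 10.77 in LSK cells, Mpo 12.60 in promyelocytes, Ltf 13.15 in myelocytes and Cxcr2 12.30 in granulocytes, each the highest of the 4 stages. Markers of other cells also moved with the stages. The summed signal of the 6 basophil and mast cell markers, on the log2 scale, was 8.11 to 9.39 in LSK cells, 11.18 to 12.60 in promyelocytes, 12.27 to 14.02 in myelocytes and 11.55 to 11.79 in granulocytes, where 3 of the 6 were at or under the dim level on every array. The granulocyte sum lay close to the signal of Hdc alone, 11.52, 11.44 and 11.71. Mcpt8 and Prss34 averaged 5.87 and 6.47 in granulocytes, against 10.94 and 11.73 in myelocytes. The summed signal of the 6 eosinophil markers was 12.03 and 12.33 on promyelocyte arrays 1 and 3, against 8.83 on promyelocyte array 2 and 7.50 to 8.91 in the other stages. The 6 monocyte markers measured, of 7 listed, summed to 11.07 to 12.07 in promyelocytes and 9.53 to 11.26 in myelocytes. The part of these cells in the results below was not tested.

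Most autophagy genes changed in level between the stages, and most of the change fell between promyelocytes and myelocytes and upward. The moderated F test passed for 34 of the 39 genes (87.2%), against 54.0% of all genes tested. Between myelocytes and promyelocytes 14 of 39 rose (35.9%), against 7.61% of all genes, and 1 fell, against 9.87%. Of all genes tested 6038 (30.3%) were dim in every stage, unlike any of the 39, which lowers the shares of all genes here and below. With those left out, 1508 of 13899 genes rose and 1958 fell in this step. The median difference of the 39 genes was 0.60 in this step and that of all genes 0.01. The steps on either side held fewer changes, as they did among all genes tested. Of all genes 4.36% and 8.31% were called in those steps, against 17.5% between myelocytes and promyelocytes. Between promyelocytes and LSK cells 0 of 39 rose, against 1.61% of all genes, and 1 of 39 fell (2.56%), against 2.75%, with a median of 0.02 for the autophagy genes and 0.04 for all genes. Between granulocytes and myelocytes 4 of 39 rose (10.3%), against 2.35% of all genes, and 0 fell, against 5.96%, with medians of 0.15 and 0.09.

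Over the whole course the same direction prevailed. Between granulocytes and promyelocytes 20 genes rose, against 10.1% of all genes, and 4 fell, against 16.3%. Between granulocytes and LSK cells 17 rose, against 9.59%, and 3 fell, against 16.5%. With the genes dim in every stage left out, 2002 and 1894 of 13899 genes rose in these comparisons, and 3229 and 3267 fell. The medians of the 39 genes were 1.07 and 0.85 in these comparisons and those of all genes 0.13 and 0.17. Both comparisons share the granulocyte arrays. The highest stage mean was in granulocytes for 22 genes, in myelocytes for 8, in promyelocytes for 6 and in LSK cells for 3.

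**Figure D1:**
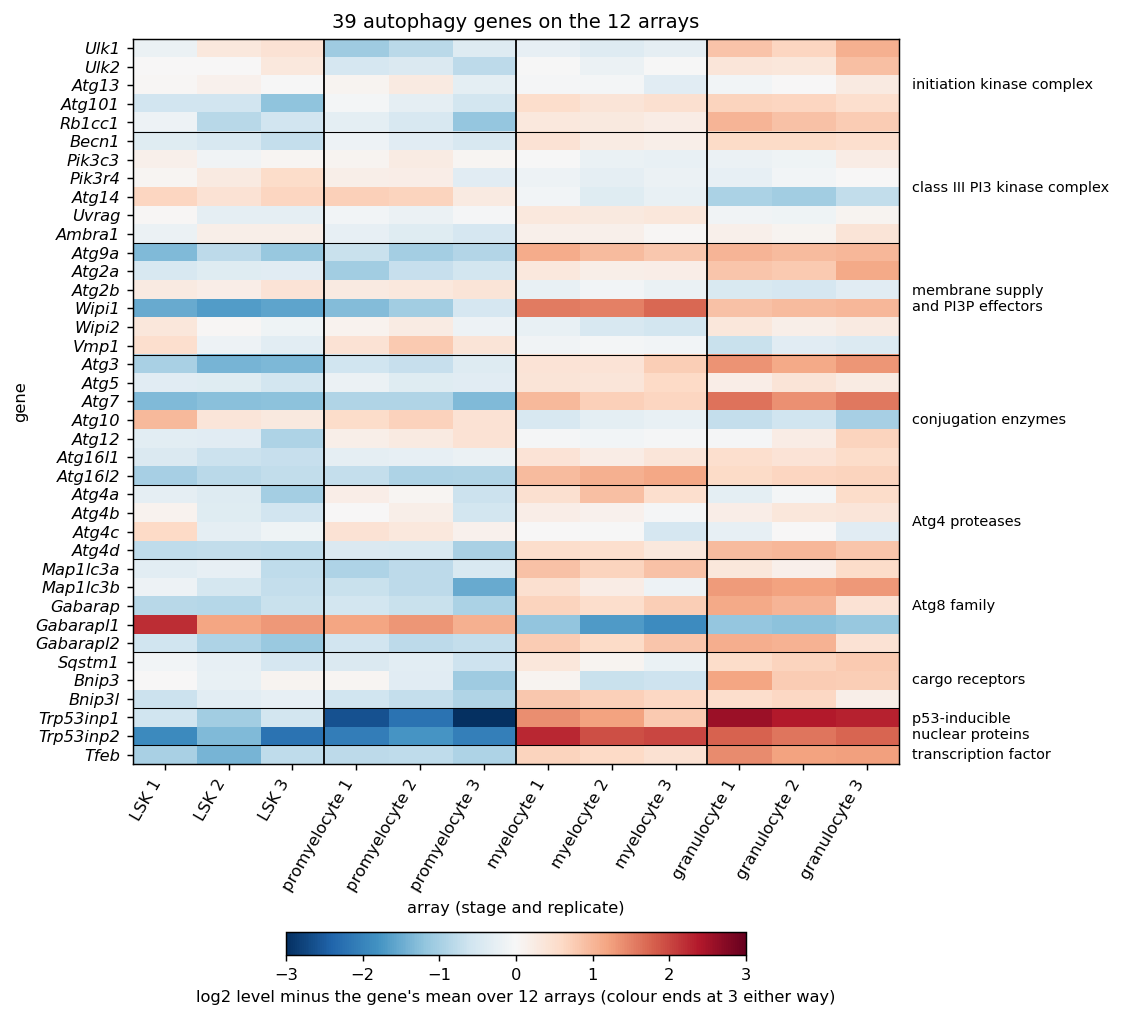
Log2 level of each of the 39 autophagy genes on each of the 12 arrays, as the difference from the gene's own mean, with genes down the page grouped by role and arrays across in order of stage. Most rows turn from blue in LSK cells and promyelocytes to red in myelocytes and granulocytes, while Gabarapl1, Atg14 and Atg10 run the other way.

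Trp53inp1 encodes a stress protein, induced by p53, that binds LC3 and GABARAP proteins and is degraded with them. It was the gene with the widest range of stage means in the set, 37.6-fold. Its levels were 8.02, 7.58 and 8.09 in LSK cells, 6.01, 6.41 and 5.03 in promyelocytes, 10.02, 9.83 and 9.41 in myelocytes and 11.20, 11.01 and 10.94 in granulocytes. No array of 1 stage overlapped any array of another, and promyelocytes, the lowest stage, also had the widest spread (SD 0.71, n = 3). Promyelocytes averaged 5.82, against 7.90 in LSK cells, a difference of -2.08 ± 0.27 (SE; limma adjusted p = 0.000134). The study had picked this gene on these samples for being higher in LSK cells than in promyelocytes, so that fall is not independent evidence of its direction.

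The later steps of Trp53inp1 both went up. Myelocytes averaged 9.75, against 5.82 in promyelocytes, which was 15.3-fold higher (difference 3.94 ± 0.27, limma adjusted p = 1.88e-08). Granulocytes averaged 11.05, against 9.75 in myelocytes, 2.46-fold higher (1.30 ± 0.27, limma adjusted p = 0.00247), and against 7.90 in LSK cells, 8.91-fold higher (limma adjusted p = 8.51e-08). All 6 pairs of stages passed, so the order from promyelocytes through LSK cells and myelocytes to granulocytes held no neighbours within each other's spread. It was the only 1 of the 39 genes that changed in all 3 consecutive steps.

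Trp53inp1 lies on chromosome 4 (GRCm38.p6, 11156441 to 11174379), and was listed by the study as a predicted target of several miRNAs. Their mature sequences, from RefSeq on GRCm38.p6, are shown because the seed, bases 2 to 8 in capitals, is what a predicted target is matched to. The levels of these miRNAs were not analysed here.
mmu-miR-17-5p: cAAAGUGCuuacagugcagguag
mmu-miR-20a-5p: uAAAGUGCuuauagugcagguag
mmu-miR-19a-3p: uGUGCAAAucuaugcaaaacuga
mmu-miR-130b-3p: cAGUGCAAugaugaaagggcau
miR-17-5p and miR-20a-5p carry the same seed, while those of miR-19a-3p and miR-130b-3p differ from it and from each other.

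Trp53inp2, the related protein that moves from the nucleus to the autophagosome and binds Atg8 proteins, took the same upward turn without the fall before it. Its levels were 5.33, 5.92 and 5.01 in LSK cells, 5.16, 5.46 and 5.20 in promyelocytes, 9.51, 9.16 and 9.24 in myelocytes and 9.01, 8.84 and 8.98 in granulocytes. The LSK and promyelocyte arrays overlapped, and every myelocyte and granulocyte array lay above both. Myelocytes averaged 9.30, against 5.27 in promyelocytes, a 16.3-fold rise (4.03 ± 0.20, limma adjusted p = 4.13e-10), the largest of the 39 genes in that step. Promyelocytes differed from LSK cells by -0.15 ± 0.20 and granulocytes from myelocytes by -0.36 ± 0.20, neither of which passed (limma adjusted p = 0.703 and 0.214).

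The RefSeq promoter of Trp53inp2 (chr2:155381606-155381905, plus strand, GRCm38.p6) is shown because of the size of its rise. It runs from 250 bases before the gene's start to 50 after it, with TGACGTCA, the palindrome that CREB and ATF factors bind, in capitals.
Trp53inp2: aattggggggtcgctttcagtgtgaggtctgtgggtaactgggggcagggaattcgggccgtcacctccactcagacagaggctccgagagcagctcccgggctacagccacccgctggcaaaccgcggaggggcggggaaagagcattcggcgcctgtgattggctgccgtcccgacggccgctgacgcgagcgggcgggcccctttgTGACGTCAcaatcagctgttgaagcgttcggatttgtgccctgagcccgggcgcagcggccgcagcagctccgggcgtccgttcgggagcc
These letters were present in 3 of the 38 promoters that RefSeq gave for 32 of the members (7.89%), those of Trp53inp2, Atg16l2 and Atg5, and in 1.79% of all 32851 promoters. The match is a description of the sequence and not evidence of binding.

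**Figure D2:**
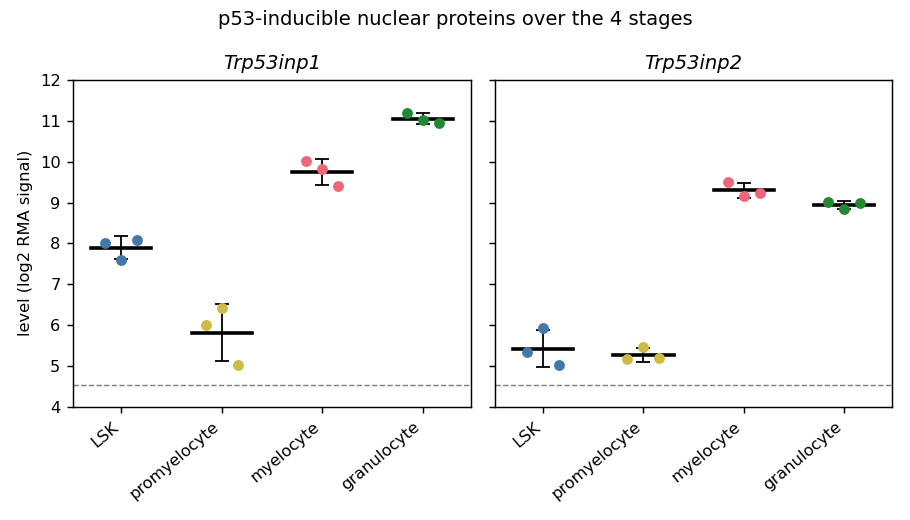
Log2 level of Trp53inp1 and Trp53inp2 on each array (points), with the mean (line) and SD (bar) of 3 arrays per stage and the dim level of 4.54 (dashed). Trp53inp1 dips to a mean of 5.82 in promyelocytes and reaches 11.05 in granulocytes, while Trp53inp2 stays near 5.42 and 5.27 in the first 2 stages and steps up to 9.30 in myelocytes.

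The Atg8 family, which is joined to the autophagosome membrane, was measured in 5 members, and all 5 changed between myelocytes and promyelocytes, 4 upward and 1 downward. Gabarap had 11.32, 11.18 and 11.38 in myelocytes, against 10.10, 9.99 and 9.71 in promyelocytes, a rise of 1.36 ± 0.18 (limma adjusted p = 1.31e-05). Gabarapl2, better known as GATE-16, had 9.64, 9.46 and 9.72 in myelocytes, against 8.32, 8.09 and 8.16 in promyelocytes, a rise of 1.42 ± 0.19 (limma adjusted p = 1.49e-05). For both genes LSK cells were like promyelocytes (9.83, 9.80 and 9.98 for Gabarap and 8.28, 7.96 and 7.78 for Gabarapl2) and granulocytes overlapped myelocytes (11.80, 11.68 and 11.10 for Gabarap and 9.98, 9.93 and 9.31 for Gabarapl2). In both, granulocyte array 3 was the lowest of its stage.

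The LC3 genes rose in the same step and then parted. Map1lc3b, the LC3 most used as an autophagosome marker, had 8.85, 8.50 and 8.31 in LSK cells, 8.36, 8.22 and 7.51 in promyelocytes, 9.49, 9.24 and 8.86 in myelocytes and 10.31, 10.23 and 10.31 in granulocytes. It rose by 1.17 ± 0.22 in myelocytes (limma adjusted p = 0.000442) and by a further 1.08 ± 0.22 in granulocytes over myelocytes (limma adjusted p = 0.00173), and granulocytes stood 4.75-fold above promyelocytes. The earlier of these rises was 0.91 without promyelocyte array 3, and the later 0.91 without myelocyte array 3 and 0.94 under quantile normalization. Map1lc3a had 5.93, 6.00 and 5.48 in LSK cells, 5.32, 5.47 and 5.80 in promyelocytes, 7.13, 6.92 and 7.12 in myelocytes and 6.59, 6.41 and 6.81 in granulocytes. Its rise in myelocytes was 1.53 ± 0.17 (limma adjusted p = 3.61e-06), and every granulocyte array lay below every myelocyte array by a difference that did not pass (-0.46 ± 0.17, limma adjusted p = 0.0765). A second row of the platform carried the symbol Map1lc3b, with values given in the closing text, and 1 for Gabarapl2, so near-identical copies cannot be told apart for these genes.

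Gabarapl1 ran the other way. Its levels were 8.59, 7.57 and 7.68 in LSK cells, 7.57, 7.70 and 7.46 in promyelocytes, 5.21, 4.69 and 4.50 in myelocytes and 5.23, 5.16 and 5.25 in granulocytes. All 6 early arrays lay above all 6 late ones, and myelocyte array 3 was under the dim level. Myelocytes averaged 4.80, against 7.58 in promyelocytes, 6.85-fold lower (-2.78 ± 0.23, limma adjusted p = 1.42e-07), and granulocytes 5.22, against 7.95 in LSK cells, 6.64-fold lower (-2.73 ± 0.23, limma adjusted p = 7.17e-08). It was the only gene of the set to fall in the myelocyte step. Its RefSeq promoter (chr6:129532942-129533241, plus strand, GRCm38.p6) is shown as that of the Atg8 gene that fell. On both strands it held no exact match to CACGTG, TCACGTGA, TGACGTCA, the C/EBP palindrome TTGCGCAA or GTAAACA, a form of the FoxO site. Other forms of these sites were not searched.
Gabarapl1: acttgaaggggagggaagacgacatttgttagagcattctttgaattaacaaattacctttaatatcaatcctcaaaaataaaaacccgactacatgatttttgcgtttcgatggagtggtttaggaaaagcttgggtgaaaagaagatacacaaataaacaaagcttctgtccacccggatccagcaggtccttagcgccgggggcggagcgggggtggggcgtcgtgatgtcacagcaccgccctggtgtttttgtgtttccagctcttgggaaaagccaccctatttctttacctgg
The C/EBP and FoxO letters were in 0 of the 38 member promoters, and in 0.183% and 3.65% of all promoters.

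**Figure D3:**
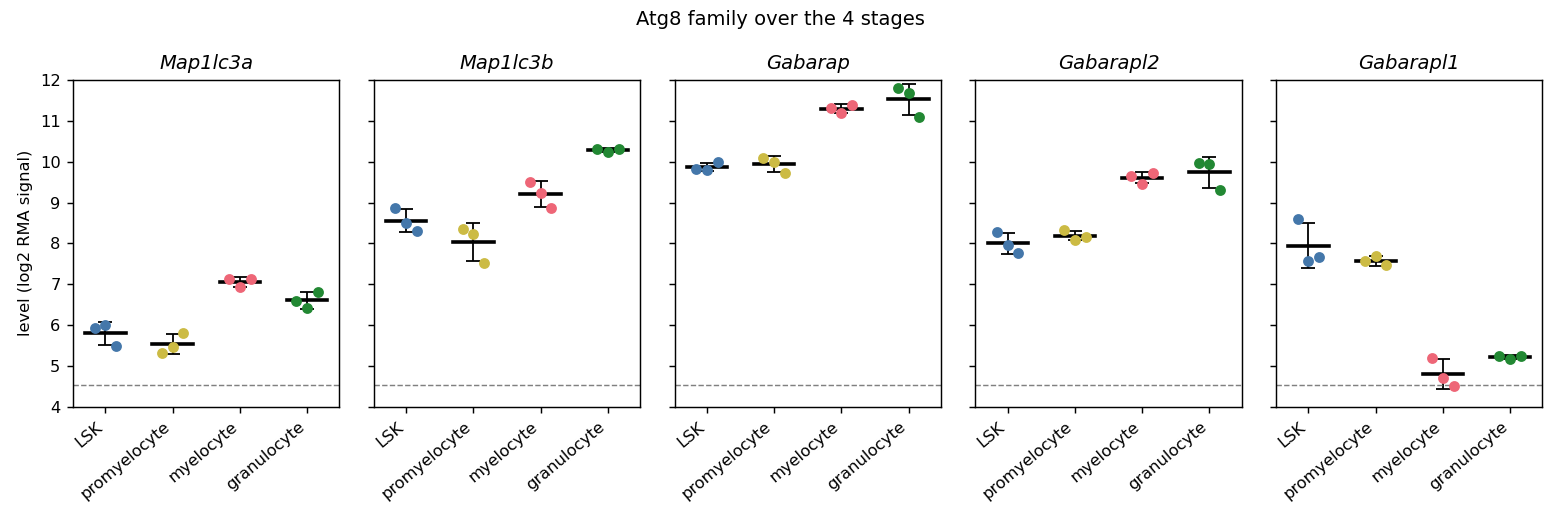
Log2 level of the 5 Atg8 family genes on each array (points), with the mean (line) and SD (bar) of 3 arrays per stage and the dim level (dashed). Map1lc3a, Map1lc3b, Gabarap and Gabarapl2 are higher in myelocytes than in promyelocytes, and Gabarapl1 drops to a mean of 4.80, near the dim level.

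The conjugation enzymes attach Atg8 proteins to lipid. All 7 varied over the stages by the F test, and 3 of the 7 rose in the myelocyte step. Atg7, the E1-like enzyme that activates both Atg8 proteins and Atg12, had 10.03, 9.78 and 9.72 in myelocytes, against 8.17, 8.16 and 7.75 in promyelocytes (1.81 ± 0.15, limma adjusted p = 1.16e-07). In granulocytes it reached 10.69, 10.45 and 10.65, against 7.75, 7.82 and 7.85 in LSK cells, 6.92-fold higher (limma adjusted p = 4.38e-10). The gene thus stood higher in granulocytes than in every other stage, though its step over myelocytes, 0.75 ± 0.15, was under 2-fold (limma adjusted p = 0.00159).

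Atg3, the E2-like enzyme that receives Atg8 proteins from Atg7, climbed through all stages. It had 8.06, 7.62 and 7.69 in LSK cells, 8.43, 8.32 and 8.64 in promyelocytes, 9.44, 9.44 and 9.75 in myelocytes and 10.38, 10.15 and 10.35 in granulocytes, with no overlap between neighbours. Its differences in the 3 steps were 0.68, 1.08 and 0.75, each with an adjusted p under 0.05 (limma, 0.00919, 4.39e-05 and 0.0025), and the middle one reached 2-fold, though not without myelocyte array 3 (0.98) or under quantile normalization (0.95). Between granulocytes and LSK cells it was 5.67-fold higher. The RefSeq promoter of Atg3 (chr16:45158579-45158878, plus strand, GRCm38.p6) is shown as the 1 member promoter that held TCACGTGA, in capitals, a long form of the CACGTG core that Tfeb and related factors bind. A further CACGTG lies before it in lower case.
Atg3: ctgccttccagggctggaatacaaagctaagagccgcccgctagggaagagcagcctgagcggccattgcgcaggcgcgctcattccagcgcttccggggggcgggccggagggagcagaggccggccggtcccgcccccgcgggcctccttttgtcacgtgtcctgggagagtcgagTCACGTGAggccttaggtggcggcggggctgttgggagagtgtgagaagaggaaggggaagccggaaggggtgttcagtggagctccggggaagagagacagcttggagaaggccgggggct
CACGTG, which TCACGTGA contains, was in 5 of the 38 member promoters (13.2%) and 7.15% of all promoters, and TCACGTGA in 2.63% and 0.974%. The 5 were those of Atg3, Atg5, Atg7, Atg14 and Bnip3, among which Atg3 and Atg7 rose and Atg14 fell between granulocytes and LSK cells.

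Atg16l2, a paralog of the Atg16l1 protein that places the Atg5 and Atg12 conjugate on the membrane, had 7.67, 7.79 and 7.87 in myelocytes, against 6.00, 5.79 and 5.82 in promyelocytes (1.90 ± 0.13, limma adjusted p = 1.78e-08). Its LSK arrays read 5.71, 5.91 and 5.98 and its granulocyte arrays 7.29, 7.36 and 7.39, below each myelocyte array but by less than 2-fold. Atg16l1 averaged 6.74 in LSK cells, 7.10 in promyelocytes, 7.67 in myelocytes and 7.82 in granulocytes, and only its difference between granulocytes and LSK cells reached 2-fold (1.08, limma adjusted p = 2.81e-06). Atg5 was 1.67-fold higher in myelocytes than in promyelocytes, and Atg12 was 1.76-fold higher in promyelocytes than in LSK cells.

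Atg10, the E2-like enzyme for Atg12, went down instead. It averaged 5.22 in granulocytes, against 6.54 in promyelocytes (-1.33 ± 0.18, limma adjusted p = 1.12e-05) and 6.53 in LSK cells (-1.31 ± 0.18, limma adjusted p = 1.27e-05), with a mean of 5.65 in myelocytes. With each array centred on its 75th percentile these differences were -0.95 and -0.98, under 2-fold.

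Among the proteins that supply and mark the membrane, Wipi1, which binds PI3P on the forming autophagosome, changed most. It had 5.60, 5.43 and 5.52 in LSK cells, 5.82, 6.06 and 6.60 in promyelocytes, 8.67, 8.63 and 8.83 in myelocytes and 7.99, 8.05 and 8.11 in granulocytes. No stages overlapped, and myelocytes were the highest. Myelocytes averaged 8.71, against 6.16 in promyelocytes, 5.86-fold higher (2.55 ± 0.17, limma adjusted p = 1.24e-08), and granulocytes were 1.58-fold below myelocytes (limma adjusted p = 0.0108). Its paralog Wipi2 had 7.58, 7.28 and 7.11 in LSK cells, 7.34, 7.50 and 7.09 in promyelocytes, 7.03, 6.75 and 6.69 in myelocytes and 7.59, 7.42 and 7.52 in granulocytes. Its differences were -0.49 ± 0.16 for myelocytes minus promyelocytes and 0.69 ± 0.16 for granulocytes minus myelocytes, opposite in sign to those of Wipi1 and under 2-fold (limma adjusted p = 0.025 and 0.00496).

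Atg9a, the membrane protein of the vesicles that seed autophagosomes, stepped up once. It read 8.78, 8.61 and 8.48 in myelocytes, against 7.00, 6.64 and 6.78 in promyelocytes (1.81 ± 0.16, limma adjusted p = 2.11e-07), with 6.34, 6.89 and 6.53 in LSK cells and 8.69, 8.61 and 8.67 in granulocytes. The early stages overlapped each other, as did the late ones.

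The lipid transfer proteins Atg2a and Atg2b, which feed lipid to the growing membrane, moved apart. Atg2a had 7.23, 7.34 and 7.35 in LSK cells, 6.65, 7.00 and 7.15 in promyelocytes, 8.02, 7.86 and 7.90 in myelocytes and 8.52, 8.49 and 8.85 in granulocytes. Atg2b had 7.42, 7.36 and 7.58 in LSK cells, 7.42, 7.46 and 7.54 in promyelocytes, 6.93, 7.07 and 6.95 in myelocytes and 6.70, 6.65 and 6.83 in granulocytes. The late arrays of Atg2a all lay above its early ones, and the late arrays of Atg2b all lay below its early ones. Granulocytes stood 3.22-fold above promyelocytes for Atg2a (1.69 ± 0.15, limma adjusted p = 1.35e-07) and 1.68-fold below them for Atg2b (-0.75 ± 0.13, limma adjusted p = 0.000113). In the myelocyte step Atg2a fell just short of 2-fold (1.00 ± 0.15). Vmp1, a scramblase that works with Atg2, averaged 7.72 in granulocytes, against 8.72 in promyelocytes. That drop only just reached 2-fold (limma adjusted p = 0.000389), and the difference was -0.88 without promyelocyte array 2, -0.90 without granulocyte array 1, -0.91 with arrays centred on the median and -0.62 with arrays centred on the 75th percentile.

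**Figure D4:**
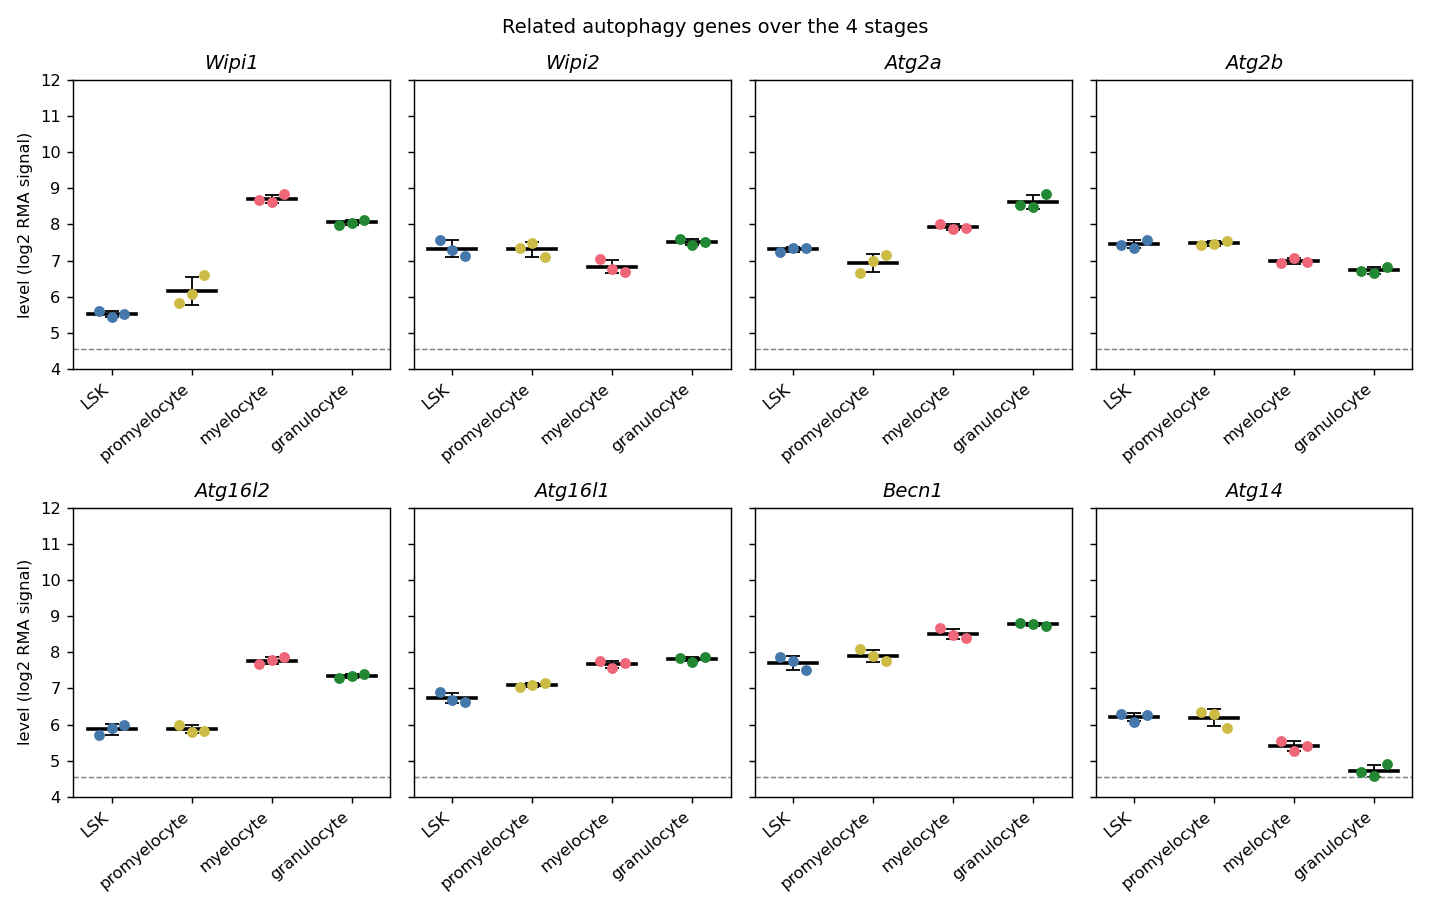
Log2 level of 8 related autophagy genes on each array (points), with the mean (line) and SD (bar) of 3 arrays per stage and the dim level (dashed). Wipi1, Atg2a, Atg16l2, Atg16l1 and Becn1 are higher in the late stages, Atg2b and Atg14 are lower, and Wipi2 is lowest in myelocytes.

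In the class III PI3 kinase complex 0 of 6 members reached 2-fold in any consecutive step. Of all genes 4.36%, 17.5% and 8.31% were called in the 3 steps, and 6 genes are too few to set against those shares. By the F test 4 of the 6 varied over the stages. The lipid kinase Pik3c3 and the regulatory subunit Pik3r4 did not pass it (limma adjusted p = 0.415 and 0.0855), and their stage means spanned 1.20-fold and 1.41-fold. A pair of subunits parted over the whole course. Becn1, the scaffold, averaged 8.78 in granulocytes, against 7.70 in LSK cells (1.07 ± 0.14, limma adjusted p = 9.98e-06), which was 0.97 without LSK array 3 and 0.96 under quantile normalization. Atg14, which directs the complex to autophagosome formation, had 4.68, 4.58 and 4.91 in granulocytes, against 6.28, 6.08 and 6.27 in LSK cells (-1.49 ± 0.15, limma adjusted p = 6.44e-07) and 6.36, 6.30 and 5.91 in promyelocytes (-1.47 ± 0.15, limma adjusted p = 7.19e-07). Myelocytes lay between, at 5.55, 5.27 and 5.42. Uvrag, which takes the place of Atg14 in the complex of the endosomal pathway, was highest in myelocytes at 8.78, against 8.36 in promyelocytes, 1.33-fold, and Ambra1, a regulator of Becn1, was 1.40-fold higher in myelocytes than in promyelocytes.

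In the initiating kinase complex Ulk1, the kinase itself, changed in the last step. Ulk1 had 8.23, 8.02 and 8.42 in granulocytes, against 7.12, 6.98 and 7.10 in myelocytes, a rise of 1.16 ± 0.19 (limma adjusted p = 0.000399). In the stages before, it read 7.18, 7.69 and 7.80 in LSK cells and 6.29, 6.55 and 6.98 in promyelocytes, which lay below every LSK array by a difference that stayed under 2-fold (-0.95 ± 0.19, limma adjusted p = 0.00381). Its paralog Ulk2 had the same signs, with -0.69, 0.52 and 0.60 in the 3 steps, against -0.95, 0.46 and 1.16 for Ulk1. Ulk2 reached 2-fold between granulocytes and promyelocytes (1.11 ± 0.17, limma adjusted p = 4.11e-05), though not without granulocyte array 3 (0.93). Rb1cc1, the scaffold FIP200, and Atg101 were higher in granulocytes than in LSK cells by 1.40 and 1.38 (limma adjusted p = 3.24e-05 and 6.54e-06). Atg13, their partner, had stage means between 8.06 and 8.27 and did not pass the F test (limma adjusted p = 0.582).

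The Atg4 proteases trim Atg8 proteins for conjugation and remove them again. Atg4d was the 1 of 4 that rose in the myelocyte step, with 7.46, 7.44 and 7.24 in myelocytes, against 6.51, 6.47 and 5.96 in promyelocytes (1.07 ± 0.15, limma adjusted p = 3.65e-05, and 0.89 without promyelocyte array 3). It had 6.17, 6.20 and 6.17 in LSK cells and 7.87, 7.93 and 7.77 in granulocytes, 3.21-fold higher than LSK cells. Atg4b and Atg4c did not pass the F test (limma adjusted p = 0.0861 and 0.181). Atg4a passed it, with its highest mean, 8.53, in myelocytes and an SD of 0.24 to 0.45 within stages, and it was 2.28-fold higher in myelocytes than in LSK cells (1.19 ± 0.26, limma adjusted p = 0.00162), the only pair of stages that reached 2-fold.

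Receptors for mitochondria rose at different steps. Bnip3l, also called Nix, had 10.61, 10.52 and 10.42 in myelocytes, against 9.22, 9.09 and 8.90 in promyelocytes (1.45 ± 0.16, limma adjusted p = 2.27e-06), and 10.33, 10.43 and 9.99 in granulocytes. It read 9.17, 9.48 and 9.56 in LSK cells, so the early and late stages were apart. Bnip3l is known for clearing mitochondria from maturing red cells. The 4 of 7 erythroid markers that were measured summed to 8.61 to 10.69 in LSK cells, 7.41 to 8.42 in promyelocytes, 7.27 to 7.74 in myelocytes and 7.66 to 8.34 in granulocytes. Bnip3 had 7.55, 7.12 and 7.08 in granulocytes, against 6.44, 5.68 and 5.74 in myelocytes (1.30 ± 0.26, limma adjusted p = 0.00159), but its other row gave 0.89, under 2-fold. On the row used, LSK cells (6.35, 6.13 and 6.43), promyelocytes (6.41, 6.01 and 5.27) and myelocytes overlapped. Sqstm1, the receptor p62, averaged 9.89 in granulocytes, against 8.77 in promyelocytes (1.12 ± 0.16, limma adjusted p = 2.43e-05, and 0.81 under quantile normalization, below 2-fold), and gained less than 2-fold in each consecutive step.

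Tfeb, the factor that switches on lysosomal and autophagy genes, had 5.88, 5.46 and 6.09 in LSK cells, 6.07, 6.10 and 5.93 in promyelocytes, 7.52, 7.46 and 7.32 in myelocytes and 8.28, 8.07 and 8.09 in granulocytes. The early stages overlapped, and each late stage stood clear of all others. Myelocytes were 2.64-fold above promyelocytes (1.40 ± 0.16, limma adjusted p = 3.47e-06), and granulocytes 5.05-fold above LSK cells (2.34 ± 0.16, limma adjusted p = 5.71e-09).

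**Figure D5:**
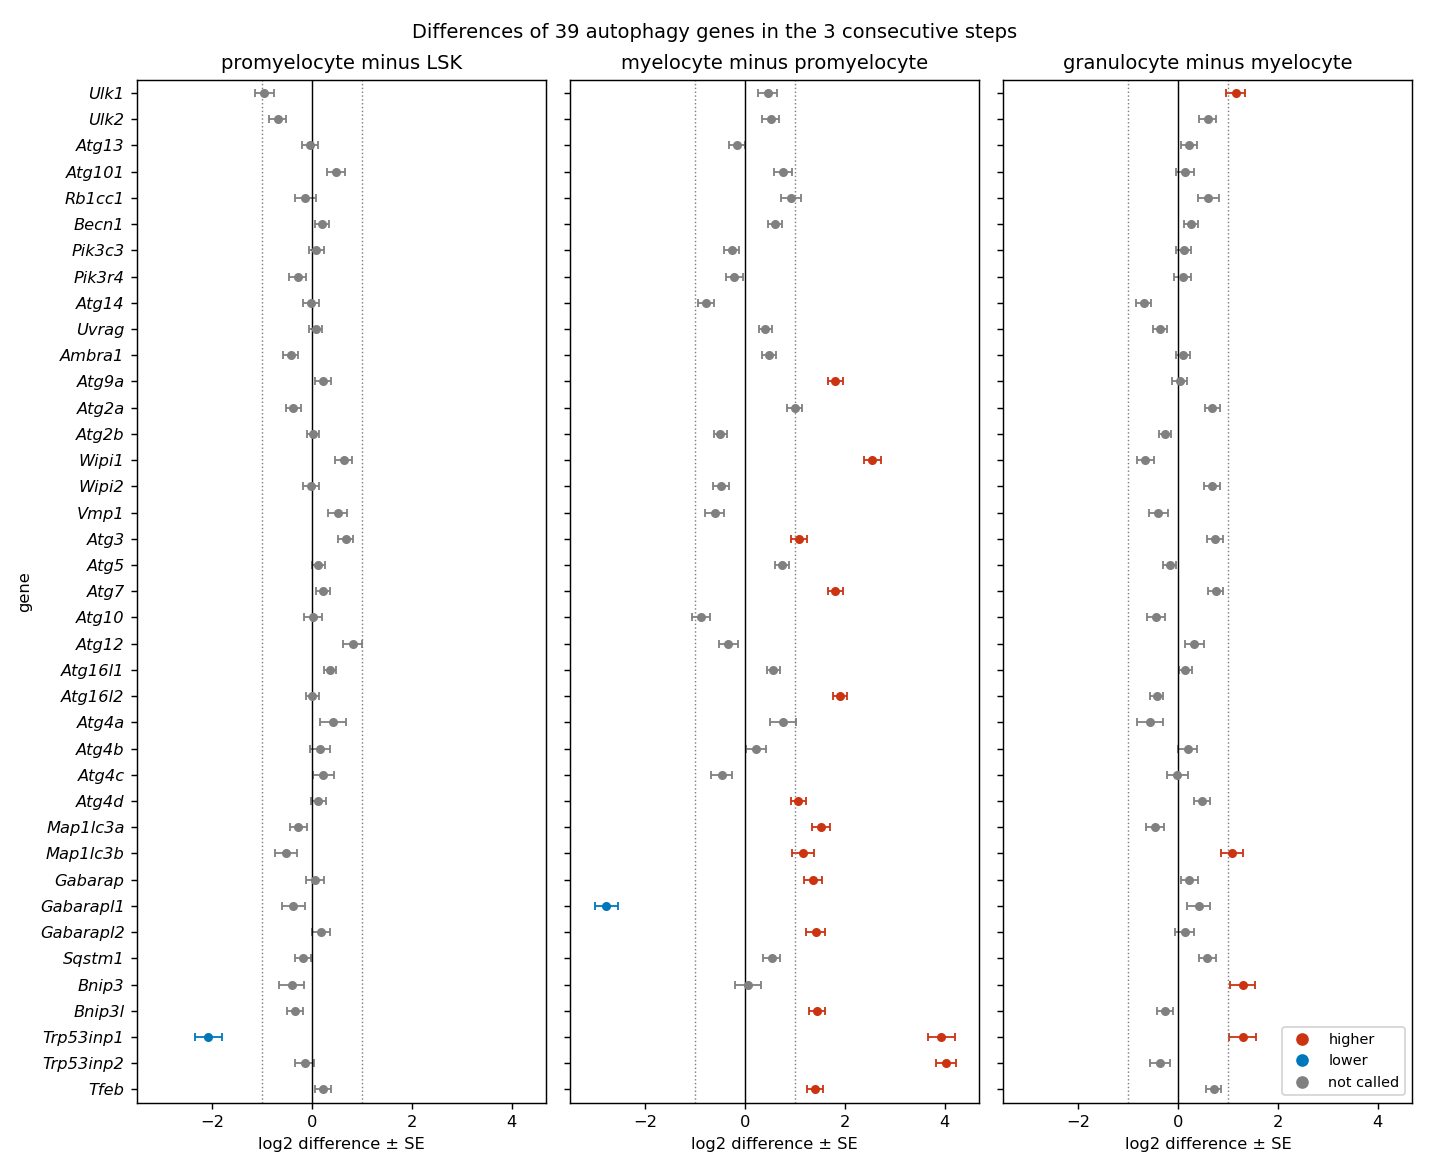
Log2 difference (later minus earlier stage, with its SE) of each of the 39 genes in the 3 consecutive steps, in red where the gene rose, blue where it fell and grey where it did not pass, with dotted lines at 2-fold. Coloured points number 1 in the first step, 15 in the second and 4 in the third, and Trp53inp1 is coloured in all 3.

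Among the 39 genes 17 changed in at least 1 consecutive step and 22 in none. The commonest course, a rise in the myelocyte step alone, was taken by 12 genes: Trp53inp2, Wipi1, Atg16l2, Atg7, Atg9a, Map1lc3a, Bnip3l, Gabarapl2, Tfeb, Gabarap, Atg3 and Atg4d. Ulk1 and, only on the row used, Bnip3 rose in the granulocyte step alone, and Map1lc3b rose in both steps. Gabarapl1 fell in the myelocyte step alone, and Trp53inp1 fell and then rose in both later steps. The basophil marker Mcpt8 read 12.15, 10.98 and 9.70 on myelocyte arrays 1 to 3, against 8.33 to 10.56 in promyelocytes, and its part in the myelocyte step was not tested. Leaving out any 1 array left 14 to 17 of the 39 genes called in the myelocyte step.

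Of 27 further autophagy genes, among them selective receptors, 26 were measured. In the myelocyte step 7 rose (26.9%, against 7.61% of all genes) and 0 fell (against 9.87%). Between granulocytes and LSK cells 7 rose (26.9%, against 9.59%) and 1 fell (3.85%, against 16.5%), with a median of 0.54, against 0.17 for all genes. The other members did not pass in these comparisons. Ccpg1, a receptor for the endoplasmic reticulum, averaged 7.86 in LSK cells, 7.78 in promyelocytes, 9.95 in myelocytes and 11.28 in granulocytes. Retreg1, another such receptor (FAM134B), averaged 9.49 in granulocytes, against 6.70 in promyelocytes (2.79 ± 0.25, limma adjusted p = 1.25e-07). Sh3glb1, or Bif-1, which bends membranes with Uvrag and Becn1, was lower in promyelocytes than in LSK cells (-1.04) and rose in both later steps (1.30 and 1.06), the same signs as Trp53inp1. Plekhm1, which tethers autophagosomes to lysosomes, was 2.25 higher in granulocytes than in LSK cells on the log2 scale.

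Genes of mTORC1 and AMPK, the kinases that restrain and start autophagy, changed in both directions. All 27 listed were measured. In the myelocyte step 5 rose (18.5%, against 7.61% of all genes) and 2 fell (7.41%, against 9.87%). Between granulocytes and LSK cells 7 rose (25.9%, against 9.59%) and 5 fell (18.5%, against 16.5%), with a median of 0.22, against 0.17 for all genes, so the share that fell was near that of all genes in both. Rptor, the subunit that defines mTORC1, averaged 5.81 in granulocytes, against 7.87 in LSK cells (-2.05 ± 0.14, limma adjusted p = 5.86e-09). Mlst8, shared by both mTOR complexes, peaked in myelocytes at 9.02, against 6.97 in promyelocytes (2.04 ± 0.16, limma adjusted p = 5.61e-08), and granulocytes were 1.19 below myelocytes. The Rag GTPases, which bring mTORC1 to the lysosome, changed in opposite directions in a pair of members. Rragd had 5.92, 6.03 and 6.15 in granulocytes, against 4.25, 3.70 and 3.81 in LSK cells, and Rragb had 3.59, 3.37 and 3.43 in granulocytes, against 6.62, 6.07 and 6.40 in LSK cells. The lower group of each was under the dim level, so no fold is given.

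Of 8 factors related to Tfeb or of the FoxO group, 1 rose and 1 fell in the myelocyte step (against 7.61% and 9.87% of all genes), and 2 rose and 2 fell between granulocytes and LSK cells (against 9.59% and 16.5%), too few genes to set against those shares. Tfe3, which binds the same sites as Tfeb, had 8.01, 7.95 and 7.90 in myelocytes, against 6.30, 6.02 and 6.05 in promyelocytes (1.83 ± 0.14, limma adjusted p = 5.62e-08). Tfec had 5.59, 5.38 and 6.12 in myelocytes, against 9.06, 8.85 and 9.32 in promyelocytes (-3.39 ± 0.26, limma adjusted p = 5.56e-08), and was at the dim level in granulocytes. Foxo1 was lower in granulocytes than in LSK cells (-1.33 ± 0.22, limma adjusted p = 7.13e-05). Foxo3, known to drive autophagy genes in stem cells, had 9.27, 9.08 and 9.35 in granulocytes, against 7.87, 8.35 and 7.97 in promyelocytes, and LSK cells were close to granulocytes at 9.00, 8.93 and 9.14.

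Trp53inp1 is a p53 target, and 18 of 21 listed p53 targets and p53 pathway genes were measured. In the myelocyte step 5 rose (27.8%, against 7.61% of all genes) and 1 fell (5.56%, against 9.87%). Between granulocytes and LSK cells 7 rose (38.9%, against 9.59%) and 2 fell (11.1%, against 16.5%), and between promyelocytes and LSK cells 1 rose and 2 fell (against 1.61% and 2.75%). Their median in the myelocyte step was 0.10, against 0.01 for all genes. Btg2, an antiproliferative gene, had the same signs as Trp53inp1 in the 3 steps, -1.07, 2.05 and 1.17, all past the thresholds. Its LSK arrays read 9.78, 9.63 and 8.35, the last of them close to promyelocyte array 1 at 8.34. Gadd45a, a growth arrest gene, averaged 10.52 in granulocytes, against 7.15 in LSK cells (3.37 ± 0.29, limma adjusted p = 7.31e-08). Dram1, a lysosomal protein that p53 uses to raise autophagy in human cells, rose before the myelocyte step too: promyelocytes had 8.12, 7.81 and 7.99, against 6.31, 6.38 and 4.80 in LSK cells (2.15 ± 0.31, limma adjusted p = 0.000258). Sesn2, which restrains mTORC1, had 8.24, 8.21 and 8.43 in granulocytes, against 6.42, 6.00 and 5.77 in myelocytes (2.23 ± 0.18, limma adjusted p = 8.39e-07). Trp53 and Cdkn1a were not analysed here.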

How the data were processed

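The authors hybridised total RNA from the 4 sorted populations to 1-colour Affymetrix Mouse Gene 1.0 ST arrays and deposited log2 values made with justRMA of Bioconductor (background correction, quantile normalization and median polish; its version was not given in the sources used here). No further normalization was applied. Array medians were 4.96 to 5.12, and the number of arrays limits the precision.

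Of 34760 rows, 21640 had 1 gene symbol in the platform table, 1321 had several and 11799 none. Rows with 1 symbol were kept, the highest-mean row per gene, and gene positions came from RefSeq on GRCm38.p6. All 12 arrays entered 1 linear model with 4 group means (limma 3.58.1, eBayes, run under R 4.3.3), with Benjamini-Hochberg adjustment over 19937 genes and the study's thresholds of 0.05 and 2-fold. The code was tested on simulated data.

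The members and lists were chosen with earlier results of these data known. Genes were described in full where they passed a consecutive step or where they and a family member moved in opposite directions; of each further list the up to 4 members with the largest called difference were named. The alternatives were other scalings, row choices and thresholds, a filter on dim genes, a block for the replicate number, and leaving out each array. Deviations of same-numbered promyelocyte and myelocyte arrays correlated over 0.1 in all 3 pairs (0.184, 0.118 and 0.196). Whether a number marks a shared animal or day is not stated. The main model did not use the numbers, so its p-values take no account of any such pairing. The block for the number was only an alternative and was fitted over all 4 stages.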

Additional observations from a re-analysis of the deposited data

How the results depend on the processing

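Of the 64 called differences of single genes, 50 kept their call under every alternative, and none changed direction. The 22 losses came from differences falling under 2-fold. Those not given above were between granulocytes and promyelocytes: Map1lc3a (0.96 without promyelocyte array 1 and 0.97 without granulocyte array 3), Bnip3l (0.83 under quantile normalization) and Bnip3 (0.99 with the mean of its rows and 0.62 on its other row). The 1 call between promyelocytes and LSK cells became 2 under quantile normalization, where Ulk1 was added at -1.08, and 2 with the mean of all rows of a gene or with the other row, an alternative chosen after seeing the data, where Map1lc3b was added. With each array left out the counts were 1 to 2 (2 without LSK array 1 or promyelocyte array 3), 14 to 17, 3 to 4, 22 to 24 and 20 to 21 in the order of the text, and 32 to 36 by the F test. Without a fold threshold they were 6, 31 and 16 in the 3 steps and 31 between granulocytes and LSK cells. Of all 19937 genes 1155, 3102 and 1609 were then higher in the 3 steps, and 1439, 3798 and 2764 lower. Between granulocytes and LSK cells 5300 were higher and 5038 lower. Centring on the 75th percentile moved the median of all genes between granulocytes and LSK cells to 0.51. It gave 23 higher and 2 lower members there, against 17 and 3. Among all 19937 genes it gave 2897 higher and 2521 lower, against 1912 and 3293. The replicate block changed no call and left 15 genes in the myelocyte step. Apart from promyelocytes and myelocytes, no pair of stages had all its same-numbered arrays correlated over 0.1. Correlations ran from -0.25 to 0.25, with 7 of all 18 pairs over 0.1 and 8 of 12 arrays closest to their own number. With 3 arrays a stage, differences under 2-fold rest on little replication.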

Other observations

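A second row was present for 6 of the genes on the platform. For Map1lc3b the row not used read 5.30, 5.45 and 5.44 in LSK cells, 4.15, 2.01 and 4.47 in promyelocytes, 6.46, 6.80 and 5.77 in myelocytes and 8.13, 8.01 and 7.74 in granulocytes. It fell in promyelocytes (-1.85, limma adjusted p = 0.0134), where the row used differed by -0.52 and did not pass, and all 3 promyelocyte arrays were under the dim level. For Bnip3 the other row gave 0.89 between granulocytes and myelocytes, against 1.30 on the row used. The other row of Gabarapl2 gave 1.27 in the myelocyte step, against 1.42, but its promyelocyte mean of 4.37 was under the dim level. That of Bnip3l gave 1.54, against 1.45. The rows of Atg2b and Atg4a had the same sign in each of the 5 comparisons. Which row lies at the gene's own locus was not examined. By their numbers on the platform, the used rows of Gabarapl2, Bnip3 and Atg4a lie among rows of genes on other chromosomes. Those used rows may therefore read copies elsewhere in the genome, which was not tested.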
